A study of Rattus norvegicus with 6 samples.

Results

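The endothelin system was followed through its 7 genes on the array: the ligand genes Edn1, Edn2 and Edn3, the receptor genes Ednra and Ednrb, and the converting enzyme genes Ece1 and Ece2. They were taken by gene name from the array files, and 9 of the 30367 non-control probes, printed as 25 of the 58717 non-control spots, carried one of these names. Hearts were compared between animals given AACO, a Chinese medicine formula, and animals given water. Edn2 and, on 1 of its 2 probes, the A receptor gene Ednra were higher in every AACO sample than in any control sample. With arrays scaled to each other, the B receptor gene Ednrb was lower in every AACO sample than in any control sample. Edn1 did not separate the groups. The largest difference was that of Edn2, which was read well above background on all 3 AACO arrays and on 0 of 3 control arrays. The family was put forward because Edn2 had stood out in this same comparison, so the differences of its members, and the calls limma made of them, are given as a description of these arrays. No call of a member is a test here or supports anything, and no p-value of a member is printed.

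The AACO group was 3 samples of animals dosed daily for 8 weeks with AACO solution at 0.386 µg/g, and the control group was 3 samples of animals given the same amount of double-distilled water. Dose and unit are printed as labelled. All animals of both groups had TAC, by its usual reading transverse aortic constriction, an operation that narrows the aorta and loads the left ventricle, and no group without the operation was analysed here. Hearts were taken 24 h after the last dose. They are treated as rats, the species of the labels (Rattus norvegicus) and of the probe positions (build rn4), although the series text speaks of mice. The tissue is labelled whole heart, with no chamber named. All 8 cardiomyocyte markers tested, among them the cardiac actin gene Actc1, were well above background on every array, with summed levels of 947 to 1064 times the array's 75th percentile in the AACO group and 855 to 1200 in the control group. Each group had a slide of its own, scanned on a day of its own, so slide, scan day and treatment cannot be told apart in any value below. On the AACO arrays 70.9% to 72.4% of spots were well above background, against 66.0% to 68.7% on the control arrays, and no spot was saturated. Whether each sample is 1 animal is not stated beyond the use of different donors, so tests measure the spread between these 6 samples.

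Endothelins are short peptides cut from long precursors, first by furin-like convertases and then by the endothelin-converting enzymes, membrane metalloproteases of the neprilysin family. The peptides act on G protein-coupled receptors. The A receptor, on smooth muscle and cardiomyocytes, drives contraction and growth. The B receptor, abundant on endothelium, releases nitric oxide and clears the peptide from the circulation, and on smooth muscle it contracts. In the heart endothelin-1 comes mainly from endothelium and is known as a constrictor and hypertrophic signal. Endothelin-2 binds both receptors much as endothelin-1 does and is better known from ovary and gut, and endothelin-3 prefers the B receptor.

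Each probe is a DNA oligonucleotide of 60 bases, and its sequence bears on how far a reading belongs to 1 gene. A pair of receptor probes is shown because they lie over matching stretches of related genes. Capitals mark the bases that the probes share when they are laid side by side without gaps, 43 of 49 overlapping bases (87.8%).
Ednra probe A_64_P158422: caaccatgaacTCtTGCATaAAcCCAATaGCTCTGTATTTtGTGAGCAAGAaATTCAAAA
Ednrb probe A_64_P004974: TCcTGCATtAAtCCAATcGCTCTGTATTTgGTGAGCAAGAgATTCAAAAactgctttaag
Among all other pairs of the 9 probes the best such alignment matched 26 of 53 bases (49.1%). How much each probe reads of the other transcript was not tested. Ednra also has the probe A_64_P109657, which does not share this stretch. The Edn2 probe, on which the largest difference rests, is shown by its first 30 bases.
Edn2 probe A_64_P010333: ctgctatcctttgttcgtctgtatataact

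Positions are those of the array files on rat build rn4, with no exon or UTR named because no annotation of that build was used here. The Edn1 probe lies at chr17:28304023-28304082, the Edn2 probe at chr5:140748047-140748106 and the Ednrb probe at chr15:87896574-87896633. The Ednra probe A_64_P109657 lies at chr19:32108094-32108153, and the shared-stretch probe A_64_P158422 lies at chr19:32102982-32103041. Ece1 has the probe A_42_P839121 at chr5:156737298-156737357 and the probe A_44_P991864 at chr5:156735668-156735727. The Ece2 probe lies at chr11:82494754-82494813. The Edn3 probe spans 945 bases of the genome, chr3:166510899-166511843, although it is 60 bases long, so its bases do not lie in 1 run on the chromosome.

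Levels are log2 of the spot signal minus the array's 75th percentile, so a level of 0 equals that percentile and each step of 1 is a doubling. Levels are compared between arrays for the same probe and never between probes. A probe counted as well above background on an array where at least 50% of its unmarked spots did, by the scanner software's own mark. Of the 9 probes 7 passed the filter, which asked for this on at least 3 of the 6 arrays, and 5 of the 7 genes were therefore in the fit of all 17536 genes. Edn3 and Ece2 were not. Edn2 passed only through the AACO arrays, so that a difference was to be found in it once it had passed. In that fit, limma called 2 members higher at an adjusted p under 0.05, Edn2 and Ednra, and none lower, where 11.3% of all genes tested were called, 6.32% of all genes higher and 4.94% lower. On scaled levels of each gene's brightest kept probe, the groups did not overlap for 4 of the 5 genes, against 37.4% of all genes. The second kept probes of Ednra and Ece1 overlapped between the groups. Edn2 and Ednra lay higher without overlap, as 21.5% of all genes did, and Ednrb and Ece1 lower, as 15.9% did. Nothing is read from these shares, since the family was chosen from this comparison.

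**Figure D1:**
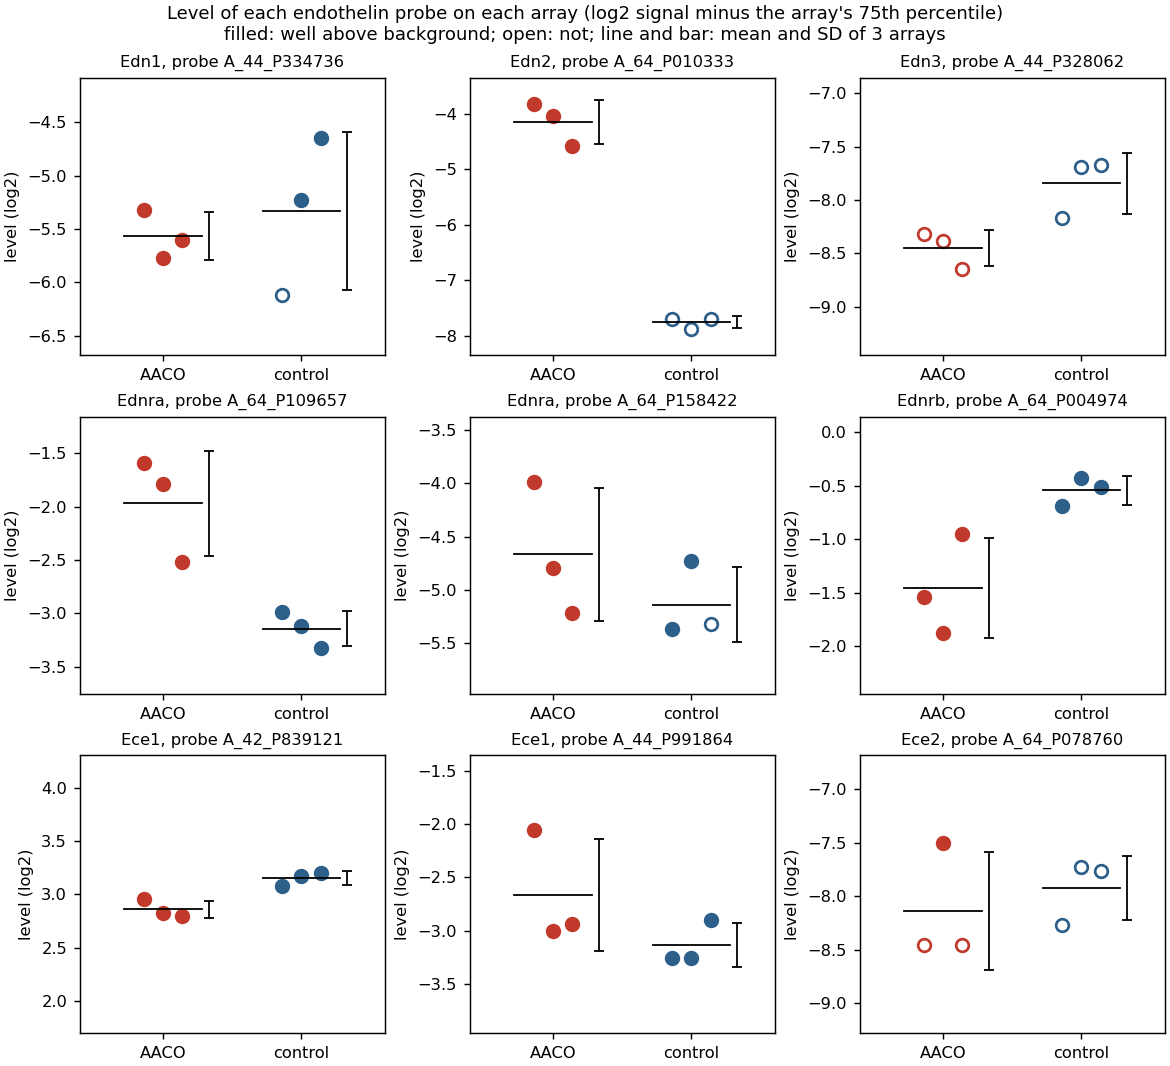
Level of each of the 9 probes (log2 signal minus the array's 75th percentile, axes differ between panels) on each of the 6 arrays, filled where the probe was well above background, with the mean and SD of 3 arrays. Edn2 is filled on 3 AACO arrays and open on 3 control arrays, Edn3 is open on all, and the 2 probes of Ednra and of Ece1 do not show the same picture.

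Edn2 was the only ligand gene whose groups were far apart. Its levels were −3.83, −4.04 and −4.58 on AACO replicates 1, 2 and 3, and −7.69, −7.88 and −7.70 on control replicates 1, 2 and 3. The lowest AACO array lay far above the highest control array, and the control arrays were nearly level with each other. As spot signals, the 6 AACO spots read 83.1 to 136 and the 6 control spots 4.89 to 10.8, none of the latter well above background. The AACO arrays averaged −4.15 ± 0.39 (SD, n = 3) and the control arrays −7.76 ± 0.11 (n = 3), a measured log2 difference of 3.61 ± 0.20 (SE). Because the control spots were not well above background, that size is no fold of transcript. Against the lowest signal well above background on each control array, at levels of −6.04, −5.86 and −5.50, Edn2 was at least 3.14-fold higher with AACO (1.65 on the log2 scale). With any 1 of the 6 arrays left out, the measured difference was 3.45 to 3.83. With normexp, a background correction that adds an offset and draws dim readings together, the measured difference was 0.79 ± 0.17 (SE).

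Edn1, the main endothelin gene of the heart, was dim and did not differ in one direction. Its levels were −5.33, −5.77 and −5.60 on the AACO arrays and −6.12, −5.23 and −4.65 on the control arrays. The control arrays spanned the AACO arrays on both sides, with SDs of 0.22 (n = 3) with AACO and 0.74 (n = 3) in controls. The difference was −0.23 ± 0.36 (SE) and was not called. It turned to 0.11 without control replicate 3, and to 0.25 when the arrays were not scaled to each other. The probe is printed 10 times on each array, so its technical error can be seen. On control replicate 3 its 10 spots read 45.1 to 63.3, on control replicate 1 they read 16.4 to 38.2, and on control replicate 2 they spread from 15.8 to 60.4. Spots of control replicate 1 therefore all lay below those of control replicate 3, and only 2 of them were well above background. Those of control replicate 2 lay across the range of both, and 8 of its 10 were well above background. The SD between spots on the log2 scale was 0.63 on control replicate 2, against 0.16 to 0.20 on the AACO arrays, where 0, 2 and 1 of the spots carried an outlier mark and were left out.

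**Figure D2:**
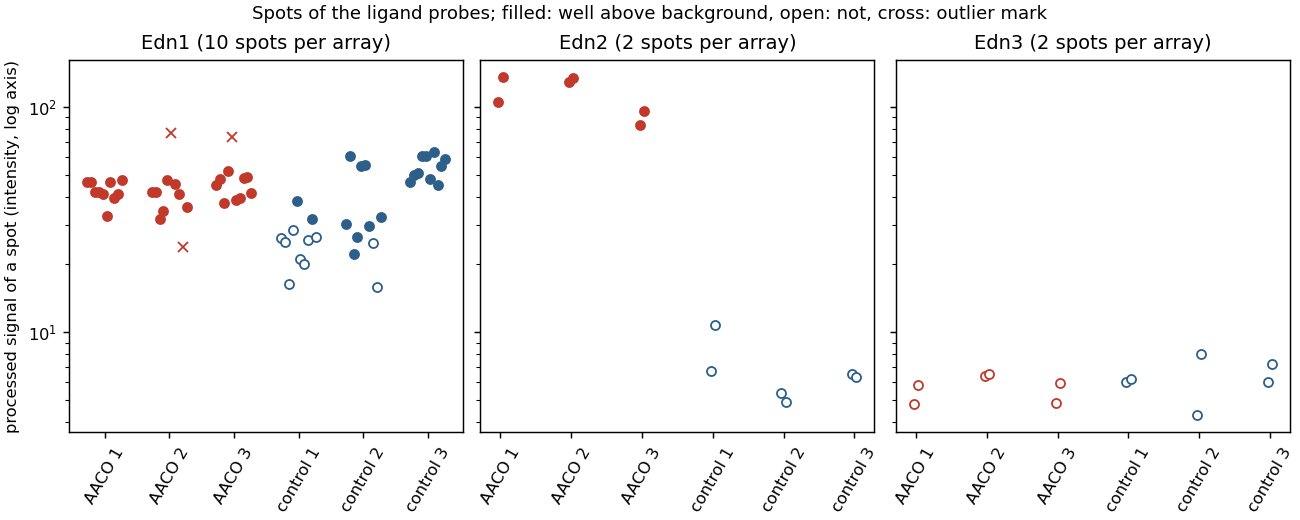
Processed signal of every spot of the Edn1, Edn2 and Edn3 probes on each array (intensity, log axis), filled where a spot was well above background and crossed where it carried an outlier mark. Edn1 spots overlap between the groups, Edn2 spots lie at 83.1 to 136 with AACO and at 4.89 to 10.8 in controls, and Edn3 spots are all open.

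Edn3, the ligand gene of neural crest and enteric development, was not well above background on any of the 6 arrays. Its levels were −8.32, −8.38 and −8.64 with AACO and −8.17, −7.69 and −7.67 in controls, with spot signals of 4.27 to 7.98 in all. The groups did not overlap, but both lay under the lowest signal read as well above background, so no fold is given. These arrays do not show whether Edn3 differed.

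The receptor genes lay on opposite sides. Ednra was higher with AACO on its brighter probe, A_64_P109657, a probe with 1 spot on each array. Its levels there were −1.59, −1.79 and −2.52 on the AACO arrays and −2.99, −3.12 and −3.32 on the control arrays. All 3 AACO arrays lay above all 3 control arrays, with AACO replicate 3 the nearest to the controls. The means were −1.97 ± 0.49 (SD, n = 3) and −3.14 ± 0.17 (n = 3), a log2 difference of 1.17 ± 0.25 (SE), or 2.25-fold, which limma called. The call was lost in 5 of the 6 fits that left out 1 array: without AACO replicate 1 (0.99), AACO replicate 2 (1.08), control replicate 1 (1.25), control replicate 2 (1.19) or control replicate 3 (1.08). It was kept without AACO replicate 3 (1.45). The direction was the same in all of these.

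The other Ednra probe, the one that shares 43 of 49 bases with the Ednrb probe, gave a smaller difference. Its levels were −3.99, −4.80 and −5.21 with AACO and −5.37, −4.73 and −5.32 in controls, so the groups overlapped. With every kept probe fitted as its own feature, where 11.1% of probes were called, its difference was 0.47 ± 0.34 (SE) and was not called, while that of A_64_P109657 was 1.17 ± 0.25 and was called. With the kept probes of a gene averaged, Ednra differed by 0.82 ± 0.28 and was not called. The difference of Ednra thus rests on 1 of its 2 probes.

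Ednrb was lower with AACO and not called. Its levels were −1.54, −1.88 and −0.96 on the AACO arrays and −0.69, −0.42 and −0.51 on the control arrays. Again the groups did not overlap and AACO replicate 3 lay nearest to the controls. Before scaling the groups overlapped. The spots of AACO replicate 3 then read 1071 and 1136, and those of control replicate 1 read 1043 and 1136. The means were −1.46 ± 0.47 (SD, n = 3) and −0.54 ± 0.14 (n = 3), a log2 difference of −0.92 ± 0.24 (SE), or 1.89-fold lower. It was called lower in 3 alternatives: without AACO replicate 3 (−1.17 ± 0.15), among probes above background on all arrays alone (−0.92 ± 0.23), and with an intensity trend and robust prior (−0.92 ± 0.22).

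A pair of atrial transcripts, picked after their values were seen, was highest on the AACO arrays where the receptor genes stood furthest from the controls. Myl7, the atrial myosin light chain gene, stood at 4.83, 6.26 and −1.06 on AACO replicates 1, 2 and 3 and at −2.31, −2.91 and −1.51 on the control arrays. Sln, the gene of sarcolipin, an atrial inhibitor of the calcium pump, stood at 1.39, 3.85 and −0.41 against −1.71, −0.42 and −0.59. AACO replicates 1 and 2, the arrays with the highest Myl7 and Sln, were also those with the highest Ednra and the lowest Ednrb. Edn2 was highest on these 2 arrays as well, at −3.83 and −4.04, against −4.58 on AACO replicate 3. The rest of the atrial list was mixed. Nr2f2, also named after its values were seen, stood at −0.79, −0.97 and −1.68 with AACO. It stood at −1.85, −1.56 and −1.70 in controls, so AACO replicates 1 and 2 were again highest. Nppa, the gene of atrial natriuretic peptide, also named after its values were seen, stood at 2.80, 5.49 and 5.86 with AACO and at 4.95, 5.25 and 6.99 in controls, lowest on AACO replicate 1, and Myl4, the brightest, differed by −0.002. Of the 5 atrial markers tested none was called in limma (2 at an unadjusted p under 0.05), and Bmp10 was too dim. The summed level of the list was 153 to 245 with AACO and 145 to 227 in controls. AACO replicate 3 alone differed from the mean of the controls by 1.18 for Myl7 and 0.50 for Sln, and by 0.62 for Ednra, −0.41 for Ednrb and 3.18 for Edn2, so the atrial pair and the members all kept the direction of the whole group there. The part of atrial tissue in the receptor and Edn2 differences was not tested.

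**Figure D3:**
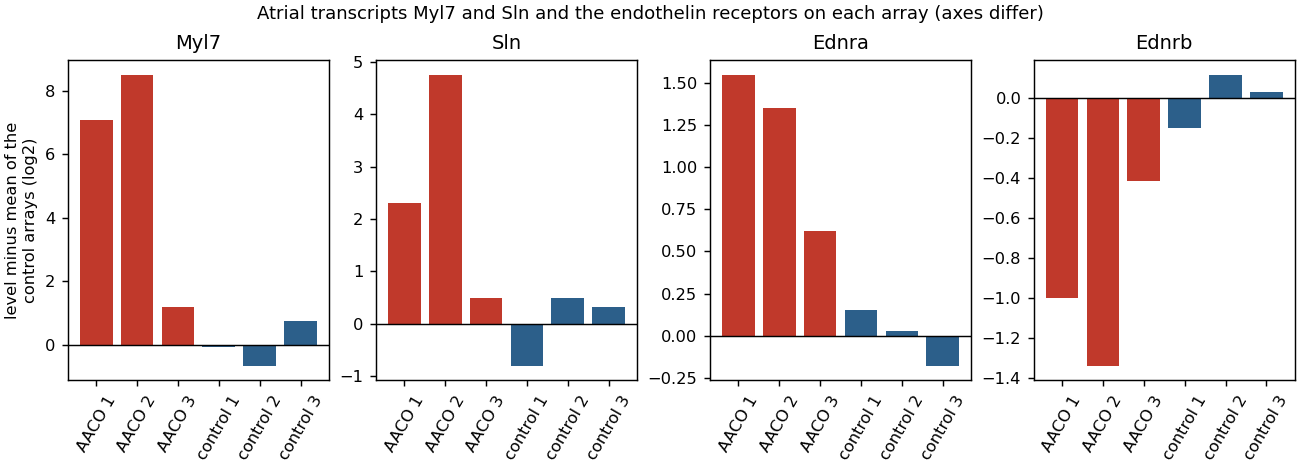
Level of Myl7, Sln, Ednra (probe A_64_P109657) and Ednrb on each array minus the mean of the 3 control arrays (log2, axes differ). AACO replicates 1 and 2 have the tallest bars in all 4 panels, and AACO replicate 3 lies on the same side as they do at 0.62 for Ednra and −0.41 for Ednrb.

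The converting enzyme gene Ece1 had 2 probes that moved in opposite directions. On the brighter probe, A_42_P839121, its levels were 2.96, 2.82 and 2.80 with AACO and 3.08, 3.17 and 3.20 in controls. The groups did not overlap, but they were close, at 2.86 ± 0.08 (SD, n = 3) and 3.15 ± 0.06 (n = 3), a log2 difference of −0.29 ± 0.10 (SE) that was not called. Before scaling the groups overlapped on this probe, with median spot signals of 13140 on AACO replicate 1 and 14910 on control replicate 1. On the dimmer probe, A_44_P991864, the levels were −2.06, −3.00 and −2.94 with AACO and −3.26, −3.25 and −2.90 in controls, which overlapped, and the difference was 0.47 ± 0.27, not called. Before scaling the AACO arrays lay above the control arrays on this probe. The nearest median spot signals were 271 on AACO replicate 2 and 184 on control replicate 1. With the probes averaged the difference was 0.09 ± 0.17. No direction can be given for Ece1 as a gene. The probes differ in base composition, with 33 of 60 bases G or C in the brighter probe and 18 of 60 in the dimmer one.

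Ece2, which encodes the second converting enzyme, active at acid pH and best known from neural tissue, was near background. Its levels were −8.46, −7.50 and −8.45 with AACO and −8.27, −7.73 and −7.77 in controls. Only 1 spot on AACO replicate 2, at a signal of 25.8, was well above background, while the other spot there read 5.50. No difference is drawn from it.

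The direction of Edn2, Ednra and Ednrb held under every alternative that kept their probes, and that of Edn1 and Ece1 did not. This is no support for the members. Edn2 passed the filter only through the AACO arrays, so its direction was to be found. Without the filter or with a stricter one the same receptor probes were read, so Ednra stayed at 1.17 and Ednrb at −0.92. Over 19 alternatives Ednra ran from 0.62 to 1.66 and Ednrb from −1.17 to −0.41, each with 1 sign throughout. Over the 18 alternatives that kept their probes, Edn2 ran from 0.79 to 4.10 and Edn1 from −0.63 to 0.25.

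**Figure D4:**
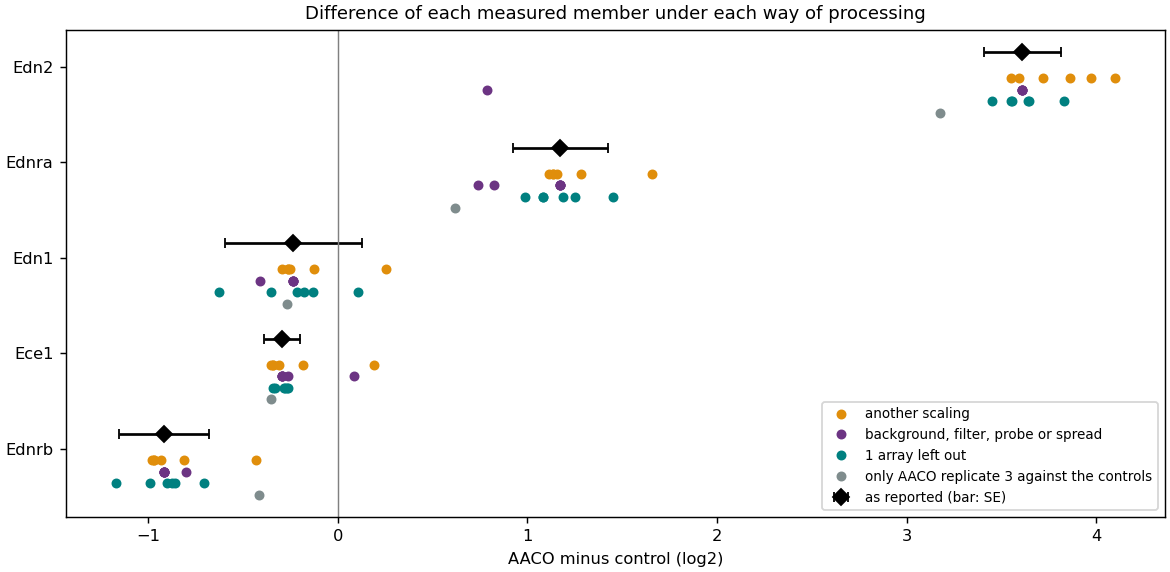
AACO minus control (log2) of the 5 members that passed the filter, as reported (diamond, bar: SE) and under each alternative (dots, coloured by kind). Edn2 and Ednra stay to the right of 0 and Ednrb to the left, while dots of Edn1 and Ece1 lie on both sides.

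Genes whose array profiles were most like each member were found by the root mean squared difference of levels over the 6 arrays, each gene first centred on its own mean. Nearest to Edn2 were Bcl11b (0.46), Phactr3 (0.50) and LOC100364218 (0.55), of which Bcl11b and Phactr3 were also above background on 0 of 3 control arrays. Nearest to Ednra were Tnik (0.09), Mlf1 (0.10) and the potassium channel gene Kcnk2 (0.10), and nearest to Ednrb were Susd2 (0.09), Raet1ll1 (0.10) and Sptlc2 (0.10). Cpsf4l (0.12), Trhr2 (0.12) and Gng3 (0.13) were nearest to Edn1, and Arhgef40 (0.02), Lrrc38 (0.03) and Arl6ip1 (0.03) to Ece1.

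Further genes of endothelin signalling were taken as 7 lists with 99 genes, of which 86 were tested. In limma 3 of these rose and 5 fell, where 6.32% of all genes rose and 4.94% fell, and their median difference was −0.05, against 0.04 over all genes. Downstream of the receptors, in the list of receptor coupling and calcium release, which holds G proteins, phospholipases, protein kinase C and IP3 receptors among others, none of 21 genes was called in limma (4 at an unadjusted p under 0.05). Among regulators of G protein and receptor signalling none of 9 was called in limma (1 at an unadjusted p under 0.05), with Rgs5 at −0.34 and Grk5 at −0.29.

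Around the ligands, the list of other peptidases had 7 genes tested. It holds peptidases that cut or clear endothelins and relatives of the converting enzymes. Ecel1, a relative of the converting enzymes, fell, and whether it acts on endothelins was not tested. Its levels were −3.57, −3.77 and −3.71 with AACO and −3.05, −3.04 and −3.11 in controls, a difference of −0.62 ± 0.10 (adjusted p = 0.0174 in limma), and the call was lost without AACO replicate 2 or control replicate 3, without scaling and with spike-in scaling (values of all alternatives from −0.68 to −0.13). Kel was at −0.86 and was not called. Of 6 prohormone convertase genes none was called in limma (1 at an unadjusted p under 0.05), with Pcsk4 at 0.26 and Furin at −0.23. Of 12 transcription factors known at the Edn1 promoter, Gata2, a factor of endothelial cells, fell by 0.54 on the log2 scale (SE 0.12, adjusted p = 0.0416 in limma). That call was lost without any 1 array other than AACO replicate 3, without scaling (−0.05), with spike-in scaling (−0.43) and without the filter. Gata6 was at 0.51 and was not called.

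Among systems that act beside endothelin on vessels, 1 of 17 vasodilator genes rose and 2 fell, and of 14 vasoconstrictor genes 2 rose and 1 fell, against 6.32% of all genes higher and 4.94% lower. Nothing particular to these lists is read from such small counts. Adm, the gene of adrenomedullin, had levels of 1.48, 1.57 and 1.87 with AACO and 3.04, 3.29 and 3.0001 in controls, a difference of −1.47 ± 0.14 (adjusted p = 0.00719 in limma), and was called in all 6 fits without 1 array. Ramp2, part of its receptor, fell by 0.85 on the log2 scale (adjusted p = 0.0195 in limma). Gucy1a1, a subunit of the nitric oxide receptor, rose by 0.78 ± 0.15 (adjusted p = 0.0271 in limma). The alpha-1 adrenergic receptor gene Adra1d stood at −0.43, −0.31 and −1.05 with AACO and at −2.14, −2.86 and −3.56 in controls, a rise of 2.25 ± 0.38 (adjusted p = 0.0207 in limma). Adra1b rose by 0.84 ± 0.16 (adjusted p = 0.0261 in limma) and the thromboxane synthase gene Tbxas1 changed by −1.002 ± 0.16 (adjusted p = 0.0168 in limma). Without AACO replicate 1 or 2 none of these genes other than Adm was called, and Ramp2 was also lost without control replicate 3, Gucy1a1 without control replicates 1 or 3, and Adra1b without control replicates 2 or 3. Without scaling the calls of Ramp2 (−0.37) and Tbxas1 (−0.52) were lost, and with spike-in scaling that of Ramp2 (−0.74). With AACO replicate 3 as the only AACO array limma called no gene at all, where 2216 had an unadjusted p under 0.05.

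**Figure D5:**
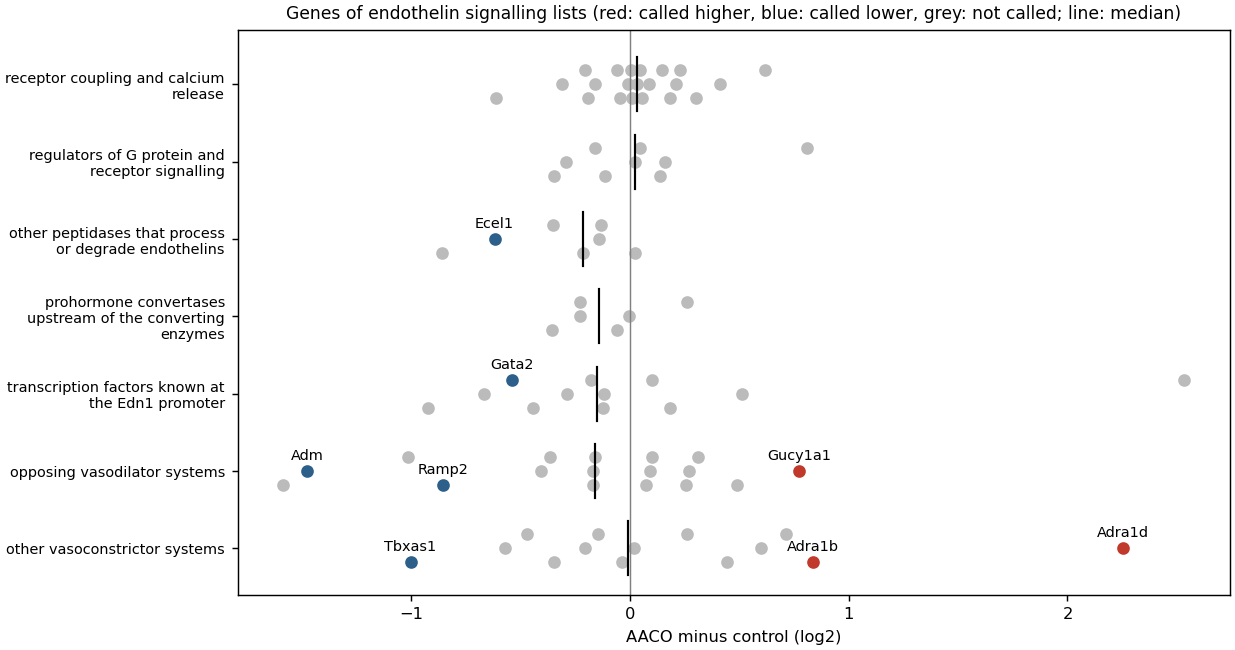
AACO minus control (log2) of each of the tested genes in the 7 lists, with the median of each list as a line. Red genes (Gucy1a1, Adra1b and Adra1d) were called higher, blue genes (Ecel1, Gata2, Adm, Ramp2 and Tbxas1) lower, and grey genes were not called.

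The genes of cells that make or receive endothelins are given beside the members, since in tissue RNA fewer cells of a type and less RNA per cell cannot be told apart. Of 11 endothelial markers tested none was called in limma (5 at an unadjusted p under 0.05), but 10 were lower with AACO, with a median of −0.31. Their summed level was 28.1 to 29.0 with AACO and 31.3 to 33.9 in controls, without overlap, and Kdr, the brightest, differed by −0.36. These directions are relative to the array's 75th percentile: without scaling every difference moves up by the same amount (the median of all genes from 0.04 to 0.52), and 11 of 11 endothelial markers were then higher, with a median of 0.18 and Kdr at 0.13. Of 8 smooth muscle and pericyte markers 8 were higher and Smtn, the brightest, was called (0.57 ± 0.12, adjusted p = 0.0322 in limma, lost without any 1 array other than control replicate 1). Their summed level was 28.7 to 34.4 against 21.7 to 24.7. The median of that list was 0.58. On the scaled levels Ednrb lay on the side of the endothelial markers and Ednra on that of the smooth muscle markers. Without scaling Ednrb stayed lower (−0.43) while the endothelial markers were higher. Both had moved up by the same amount, so the side of each depends on where 0 falls. Nothing is read from the sides. The part of these cells in the receptor values was not tested.

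Markers of further cell types are given beside Edn2, and their part in it was not tested. Of 7 epithelial markers only Krt18 passed the filter, and it fell (−1.36 ± 0.32, adjusted p = 0.0473 in limma, lost in each of the 6 fits without 1 array and without the filter). Epcam, Cdh1, Krt8, Krt19, Cldn3 and Cldn7, defining genes of epithelium, were too dim to be tested. Of 3 lung markers tested none was called (0 at an unadjusted p under 0.05 in limma), with Ager at 0.19, and the summed level was 0.164 to 0.186 with AACO and 0.142 to 0.200 in controls. Of 10 macrophage markers 8 fell in limma, where 4.94% of all genes did. Those of smallest adjusted p were Mrc1 (−2.45 ± 0.23), Adgre1 (−1.50 ± 0.16) and Cd14 (−1.10 ± 0.13, not called without scaling, at −0.61). Mrc1 was well above background on 2 of 3 AACO arrays, so its size is no fold of transcript, and with normexp it was at −1.43. Lyz2, the brightest, was at −0.81 and not called. None of 5 mast cell markers was called (1 at an unadjusted p under 0.05 in limma), with Tpsab1 at −0.25, nor any of 7 fibroblast markers (1), with Dcn at −0.57. Among 7 markers of Schwann cells and nerve Sox10, a neural crest factor, rose (1.52 ± 0.35, adjusted p = 0.0451 in limma, lost without any 1 array other than AACO replicate 3 and without the filter), and Uchl1 was at −0.59. Their summed level was 2.36 to 5.87 with AACO and 1.75 to 2.56 in controls. Of 5 melanocyte markers only Dct was bright enough to test, at −2.04 and not called. It was well above background on 1 of 3 AACO arrays, so that size is no fold of transcript either.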

How the data were processed

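RNA of 6 whole-heart samples was labelled with Cy3 (0.2 ug per array) and read on 1-colour Agilent arrays. The intensity deposited for a spot is, per the file headers, the background-subtracted processed signal of Agilent Feature Extraction 10.7.1.1, not scaled between arrays. The authors also deposited log2 values in a series matrix, whose processing is not given in the sources used here. Its columns share a median of 6.7708673 and correlated with the scanner values at 0.998 or more. They were used as an alternative, with the direction and log base of the scanner values.

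Control spots and those marked as outliers were dropped. A level is log2 of the signal minus the 75th percentile over all non-control spots of that array, averaged over a probe's spots. The filter, well above background on 3 or more of the 6 arrays, kept 20112 of 30367 probes. A gene was read by its probe of highest mean signal. Symbols came from the RefSeq table of GRCr8 where the accession matched (18005 probes), otherwise from the array file. AACO and control were compared in R 4.3.3 with limma 3.58.1 (lmFit, eBayes, two-sided, Benjamini-Hochberg over 17536 genes, called at an adjusted p under 0.05), tested on simulated data. Alternatives covered scaling, normexp, the filter, the probe rule, the prior and each array left out.

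The members and lists were chosen with earlier results of these data known. Named were all members, the 3 genes most like each tested member, and Myl7, Sln, Nppa and Nr2f2, chosen after their values were seen. From each pathway list came the genes called and up to 2 of smallest adjusted p. Each marker list gave up to 3 called and the brightest. The genes this rule names in the list of receptor coupling are not reported here.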

Additional observations from a re-analysis of the deposited data

How the results depend on the processing

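The calls rested on few arrays and on how arrays were scaled, while the directions of Edn2, Ednra and Ednrb held in each alternative that kept their probes. Among probes above background on all arrays the Edn2 probe was not kept, so Edn2 has no value there. As reported, 1108 genes were higher and 867 lower (56.1% of calls higher), and 3 and 5 of the pathway genes. Without scaling the counts were 5493 and 232 (95.9%) and 20 and 2 in the pathway, with Edn1 at 0.25, Edn2 4.10, Ednra 1.66, Ednrb −0.43 and Ece1 0.19. Differences that turned positive there were those of Furin (0.26), Rgs5 (0.14), Grk5 (0.20), Tpsab1 (0.24), Kdr (0.13), Actc1 (0.26) and Myl4 (0.48). With spike-in scaling 1288 genes were higher and 389 lower (76.8%), with 2 lower in the pathway, Ece1 at −0.19 and Myl4 at 0.11. Normexp gave 774 higher and 1529 lower (33.6%), 9 lower in the pathway, Edn2 at 0.79, Ednra at 0.74, Myl4 at 0.16 and Ager at −0.064. Without the filter, 776 were higher and 1401 lower (35.6%), with 26310 genes tested. Averaging kept probes put Ece1 at 0.087, the series matrix put Edn2 at 3.97, and an intensity trend with a robust prior called 5 pathway genes higher. With the 75th percentile taken over probes, chosen after seeing the data, 876 were higher and 1041 lower (45.7%).

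Leaving out 1 array gave 108 to 1225 genes higher and 148 to 937 lower, with 0 to 6 and 1 to 7 in the pathway. The fewest came without AACO replicate 2 (108 and 148), AACO replicate 1 (179 and 227) and control replicate 3 (322 and 304). Edn1 ran from −0.63 to 0.11, and Myl4 from −0.085 to 0.069. With AACO replicate 3 as the only AACO array, also chosen after seeing the data and assuming that it varies like the controls, limma called 0 genes higher and 0 lower (2216 at an unadjusted p under 0.05), and 0 and 0 in the pathway (13 unadjusted). There Edn2 was at 3.18, Ednra 0.62, Ednrb −0.41, Tpsab1 0.083 and Myl4 8e-04. Why the alternatives differed from each other was not tested. No paired analysis was possible because the sample titles give the groups no shared replicate numbers. Edn3, Ece2 and the control level of Edn2 are limited by signal over background.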
